A study of Sus scrofa with 19 samples.

Results

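*Ruminococcaceae* is a family of strictly anaerobic *Firmicutes* of the order *Clostridiales* that lives in the large intestine of pigs and many other mammals. Its members ferment plant fibre and resistant starch that the animal cannot digest itself, and many of them release short-chain fatty acids. Among these acids butyrate is a main fuel of the cells that line the colon. The 8 taxa described here are this family, the 5 genera *Oscillibacter*, *Ruminococcus*, *Sporobacter*, *Butyricicoccus* and *Intestinimonas*, and the species *Oscillibacter ruminantium* and *Oscillibacter valericigenes*. They were chosen by name, with earlier results of these data known. They are 8 of the 48 rows of the family, genus and species tables, which also hold other fibre and butyrate bacteria. All 8 were above 0 in all 19 boars. The tables do not say in which family each genus was placed. The 5 genera together did not exceed the family in any boar, and shares within the family are given on the assumption that they belong to it.

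The bacteria were profiled in feces of Duroc boars by sequencing a stretch of the gene for 16S ribosomal RNA, which all bacteria carry and which differs between them. The 10 AOS10 boars were fed a basal diet with alginate oligosaccharides, short chains cut from a brown seaweed polysaccharide, at 10 mg/kg body weight, and the 9 CON boars the same basal diet alone, both for 9 weeks. There was 1 sample per boar, and no CON boar numbered 6 was analysed here. By the labels the AOS10 boars were aged 24 to 33 months and the CON boars 34 to 42, in steps of 1 month along the samples, while the methods put all boars at about 24 months. Diet and labelled age cannot be told apart. The values are relative abundances, that is the percent of all sequences of a boar, and the number of sequences behind them is not given in the tables and was treated as unknown. The sequences that no listed genus holds averaged 58.6% in AOS10 and 59.2% in CON. In AOS10 boar 3 a single genus outside these taxa, *Murdochiella*, held 54.4% of the sequences (at most 0.128% in any other boar), which lowers every other share in that boar.

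*Ruminococcaceae* led the listed families in 6 of 10 boars of AOS10 and in 8 of 9 of CON, and it was second in all the others. Its share ranged over 10.1% to 35.2% in AOS10 (median 26.9%) and over 21.9% to 38.1% in CON (median 31.7%). The ranges overlapped, and 8 of the 10 AOS10 boars lay inside the CON range. The remaining AOS10 boars, 3 (10.1%) and 5 (16.1%), lay below it. The mean was 25.7% ± 7.83 in AOS10 and 30.9% ± 5.52 in CON (SD, n = 10 and 9), a ratio of 0.831. This difference did not pass the test (p = 0.115 in a two-sided exact permutation test over the boars, the test behind every p called exact for means here). With limma on log2(percent + 0.01) the log2 fold change was −0.33 ± 0.26 (SE, 95% interval −0.87 to 0.22, adjusted p = 0.569). None of the 15 families tested passed an adjusted p of 0.05 (0%), and none passed it without adjustment.

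The boars in which another family came first differed in which one it was. *Lachnospiraceae*, a neighbouring family with many butyrate producers, led in AOS10 boars 5 (28.1% against 16.1% of *Ruminococcaceae*) and 10 (38.5% against 27.1%). *Streptococcaceae* led in AOS10 boar 2 (23.6% against 22.6%) and in CON boar 4 (26.1% against 21.9%). In AOS10 boar 3 the leading row was *Clostridiales* without a family name (55.5%), which includes *Murdochiella*. When the sequences of *Murdochiella* were left out of the total, boar 3 had 22.2% *Ruminococcaceae* and the AOS10 mean was 26.9% ± 5.84.

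As a part of its order the family had a lower mean in AOS10. It made up 38.3% ± 11.0 of *Clostridiales* in AOS10 and 47.2% ± 5.49 in CON (exact p = 0.0273, SD, n = 10 and 9). The lowest, median and highest values were 12.7%, 41.6% and 50.2% in AOS10, against 36.3%, 47.9% and 55.3% in CON. The ranges overlapped, and 1 AOS10 boar (8) lay above the CON median. Adjusted over the 15 families, p was 0.409, with all of them set against the order, including those outside it, for which the value is a ratio. Without AOS10 boar 3 the AOS10 mean was 41.1% ± 6.69 (exact p = 0.0449), and p was 0.0630 without CON boar 2 and 0.0539 without CON boar 9.

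Most of the family carried no listed genus name. The part outside the 5 genera was 18.4% ± 5.87 of all sequences in AOS10 and 21.4% ± 5.30 in CON (exact p = 0.261, n = 10 and 9). The 5 genera together were 7.27% ± 2.68 of all sequences in AOS10 and 9.50% ± 3.71 in CON (exact p = 0.149). Within the family they made up 18.1% to 34.4% in AOS10 boars and 14.2% to 43.1% in CON boars, with means of 28.3% ± 5.45 in AOS10 and 30.7% ± 10.6 in CON (exact p = 0.528). All 10 AOS10 boars lay inside the CON range of this share. Of 12 further genera usually placed in this family or next to it, among them *Faecalibacterium*, *Subdoligranulum* and *Oscillospira*, none was a row of the genus table.

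**Figure D1:**
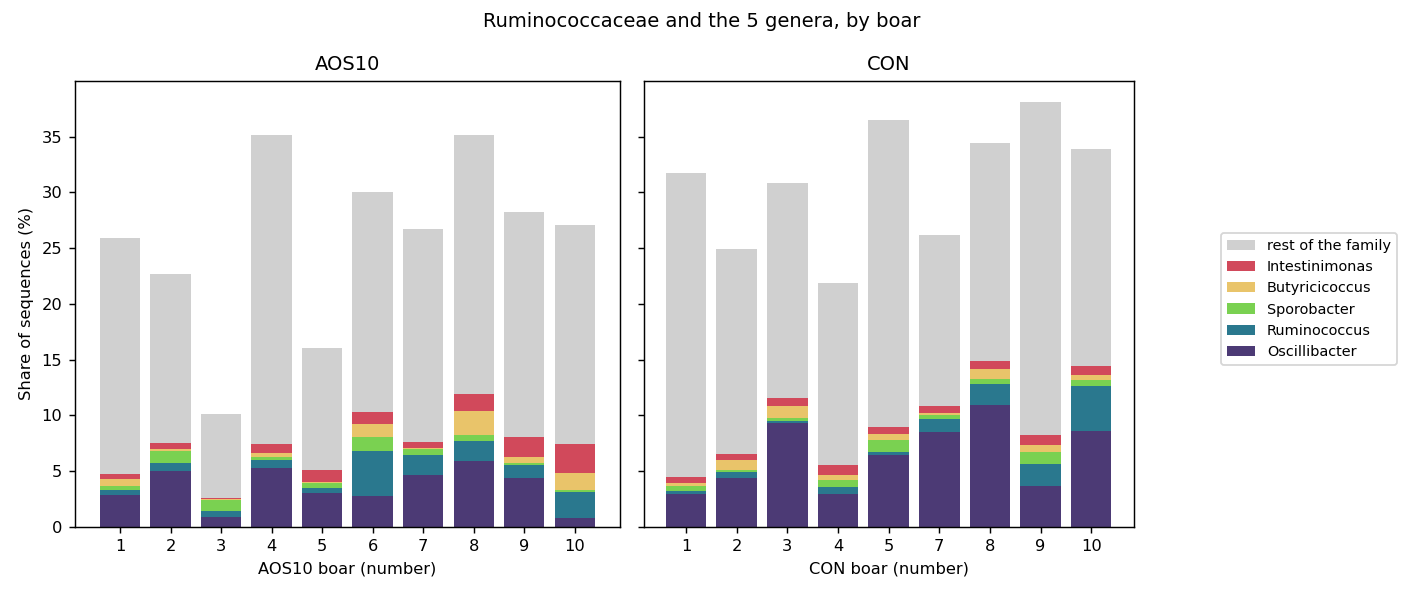
Each bar is 1 boar (AOS10 left, CON right), its height the share of *Ruminococcaceae* in percent of all sequences, split into the 5 genera and the rest of the family. The rest is the largest part in every boar, and *Oscillibacter* is the largest of the 5 genera in 7 of 10 AOS10 and 9 of 9 CON boars.

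*Oscillibacter* was the leading genus of the 5. It is known for *O. valericigenes*, which forms valerate, and *O. ruminantium*, a butyrate former isolated from the cattle rumen. Its share was 0.826% at lowest, 3.70% at the median and 5.94% at highest in AOS10, against 2.91%, 6.40% and 10.9% in CON. The ranges overlapped, with 6 AOS10 boars inside the CON range, 4 (boars 1, 3, 6 and 10) below it and none above the CON median. The CON boars spread widely as well, with 4 of them (3, 7, 8 and 10) above 8% and the other 5 between 2.91% and 6.40%. The mean was 3.56% ± 1.78 in AOS10 and 6.40% ± 3.03 in CON (SD, n = 10 and 9), a ratio of 0.555 (exact p = 0.0222). Adjusted over the 18 genera tested p was 0.399. It was the only genus of the 18 with an unadjusted p under 0.05, which is 5.56% of those tested, and none passed after adjustment (0%). In limma its log2 fold change was −0.94 ± 0.46 (SE, 95% interval −1.89 to 0.01, adjusted p = 0.419), and limma called no genus with or without adjustment. With a pseudocount of 0.1 its unadjusted limma p was 0.0447 (adjusted p = 0.389), and the exact test on ranks gave p = 0.0535.

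*Oscillibacter* was the first of the 19 listed genera in AOS10 boar 4 and in CON boars 3 and 10. Among the 5 genera it came first in 7 of 10 boars on AOS10 and in 9 of 9 on CON. The AOS10 boars with another order were 3, where *Sporobacter* led (0.922% against 0.868%), 6, where *Ruminococcus* led (3.97% against 2.79%), and 10, where *Intestinimonas* led (2.61% against 0.826%). Within the family *Oscillibacter* was 13.8% ± 5.71 in AOS10 (3.05% to 21.9%, median 15.2%) and 20.8% ± 9.32 in CON (9.18% to 32.5%, median 17.7%), and the difference did not pass the test (exact p = 0.0615, n = 10 and 9). The CON boars with the highest values were 3, 7 and 8, each above 30%, and no AOS10 boar reached 22%. With *Oscillibacter* taken out, the family was 22.1% ± 6.88 in AOS10 and 24.5% ± 5.61 in CON (exact p = 0.424). This difference of −2.38 percentage points was −0.945 without AOS10 boar 3, −1.36 without AOS10 boar 5 and −1.14 without CON boar 9.

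**Figure D2:**
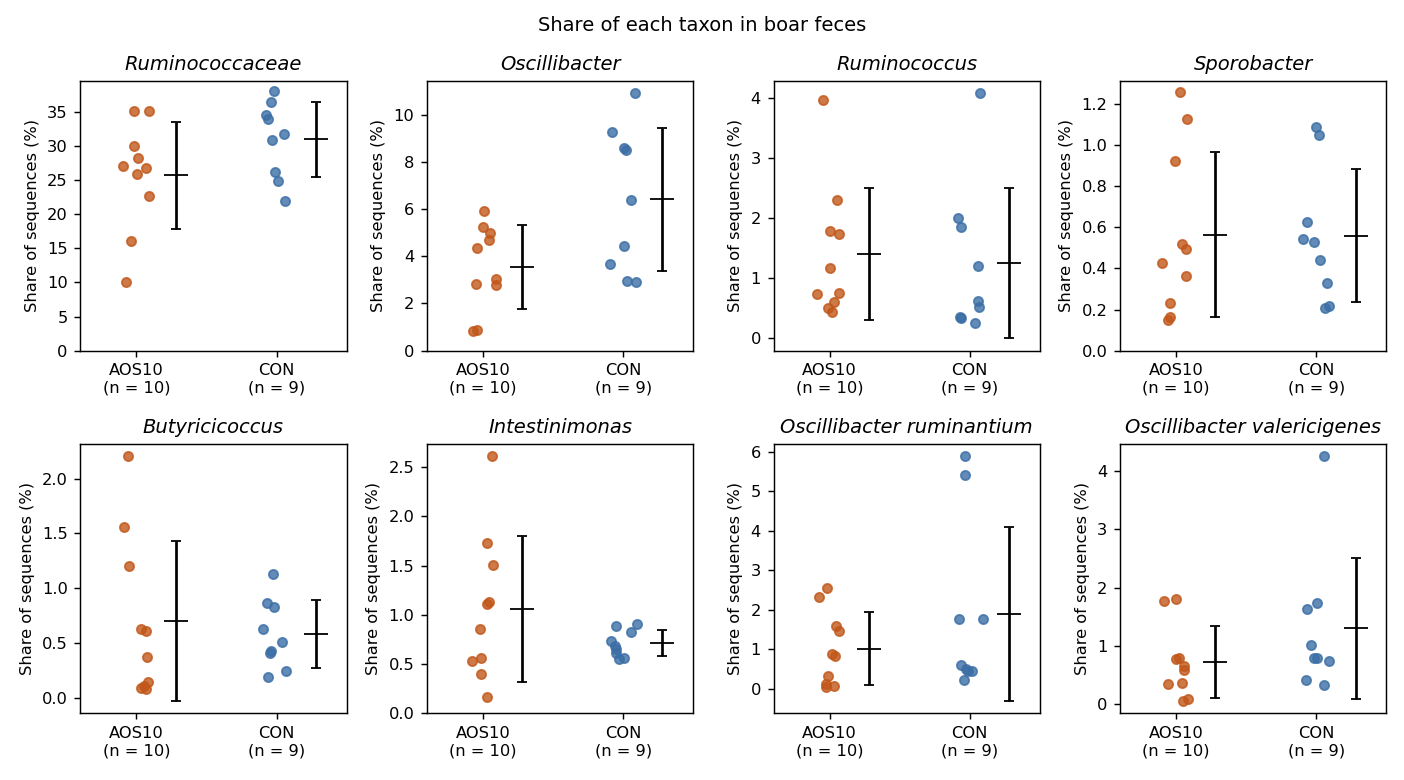
Share of sequences in percent for the 8 taxa. Points are boars (10 AOS10 on the left, 9 CON on the right of each panel), the horizontal mark is the mean and the bar is 1 SD. The *Oscillibacter* means are 3.56% in AOS10 and 6.40% in CON, and the *Intestinimonas* points spread from 0.162% to 2.61% in AOS10 and from 0.555% to 0.911% in CON.

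The species table split *Oscillibacter* into the 2 listed species and a part with neither name. *O. ruminantium* had a lowest, median and highest share of 0.0457%, 0.854% and 2.55% in AOS10, against 0.221%, 0.598% and 5.89% in CON. The mean was 1.02% ± 0.927 in AOS10 and 1.90% ± 2.20 in CON (exact p = 0.301, n = 10 and 9). CON boars 7 (5.40%) and 8 (5.89%) stood apart, with the other 7 CON boars at or below 1.77%, and without them the CON mean was 0.824% ± 0.654, below that of AOS10 (exact p = 0.631). The direction of the difference in this species thus changed with these boars.

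*O. valericigenes* had a lowest, median and highest share of 0.0540%, 0.618% and 1.80% in AOS10, against 0.328%, 0.795% and 4.26% in CON. The mean was 0.724% ± 0.617 in AOS10 and 1.30% ± 1.21 in CON (exact p = 0.204, n = 10 and 9). The highest CON value belonged to boar 3, not to boars 7 and 8, and the next CON value was 1.74%. Without CON boar 3 the difference was −0.209 percentage points, against −0.579 with it (exact p = 0.451). In limma the log2 fold change was −0.94 ± 0.80 for *O. ruminantium* (SE, adjusted p = 0.665) and −1.02 ± 0.63 for *O. valericigenes* (adjusted p = 0.571). None of the 13 species rows tested passed, with or without adjustment (0%).

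The sequences of *Oscillibacter* with neither species name were 1.81% ± 0.927 of all sequences in AOS10 and 3.21% ± 1.66 in CON (exact p = 0.0299, n = 10 and 9, not adjusted and outside the tables). They ranged over 0.353% to 3.04% in AOS10 (median 1.99%) and over 1.35% to 6.02% in CON (median 2.47%), so the groups overlapped. CON boars 5 (5.85%) and 10 (6.02%) held the highest values of this part, and the next CON value was 3.38%. The difference without these boars was not tested. As a share of the genus this part was 55.8% ± 23.8 in AOS10 and 54.1% ± 21.8 in CON (exact p = 0.870). Single boars lay far apart in both groups, with 22.2% (boar 9) to 94.1% (boar 5) in AOS10 and 27.3% (boar 7) to 91.4% (boar 5) in CON. Of the difference in the mean of the genus, 30.6% was *O. ruminantium*, 20.3% *O. valericigenes* and 49.0% the part with neither name. These parts depended on single CON boars. The part of *O. ruminantium* was 16.3% without CON boar 8 and turned to −10.4% without CON boars 7 and 8, and that of *O. valericigenes* was 8.41% without CON boar 3.

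**Figure D3:**
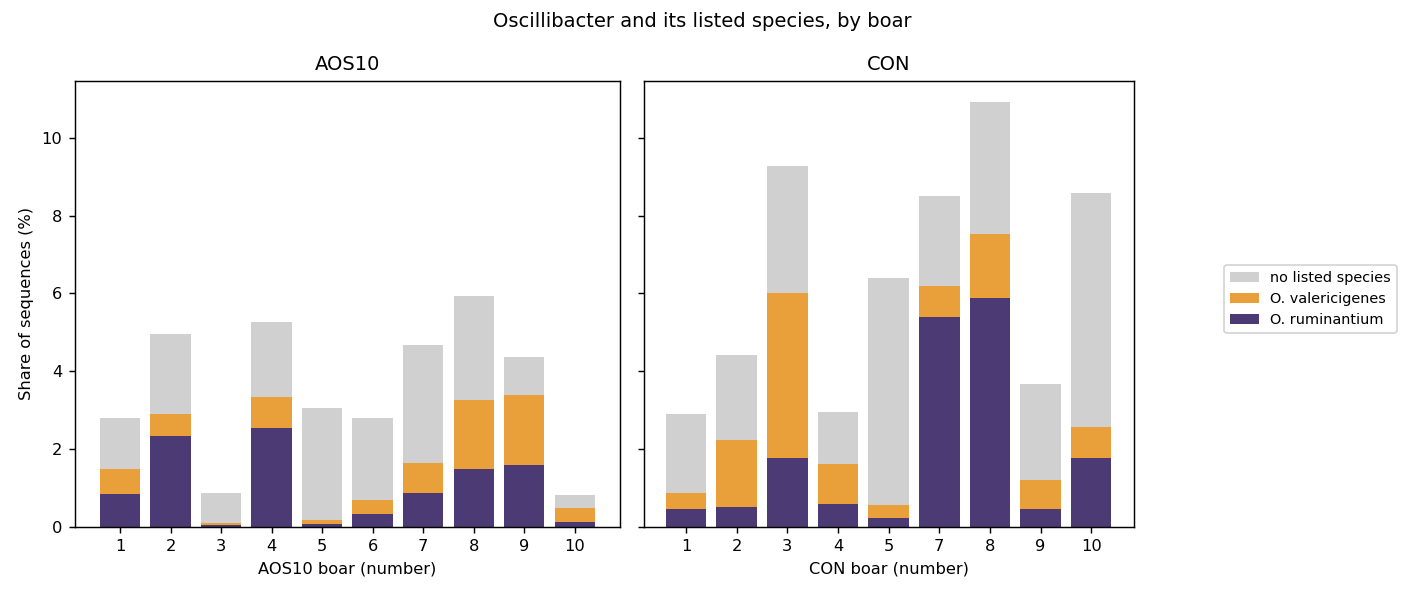
Each bar is 1 boar (AOS10 left, CON right), its height the share of *Oscillibacter* in percent of all sequences, split into *O. ruminantium*, *O. valericigenes* and sequences with neither name. The high bars of CON boars 7 and 8 are mostly *O. ruminantium* (5.40% and 5.89%), and that of CON boar 3 holds more *O. valericigenes* (4.26%).

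The balance of the species was taken as *O. ruminantium* in percent of both species together. In AOS10 it was 56.1%, 80.0%, 45.8%, 76.2%, 47.0%, 47.3%, 53.1%, 45.3%, 46.9% and 26.9% in boars 1 to 10. In CON it was 53.0%, 22.2%, 29.3%, 37.0%, 40.2%, 87.2%, 78.2%, 38.1% and 69.0% in boars 1 to 5 and 7 to 10. The species were near parity, between 40% and 60%, in 7 of the 10 boars on AOS10 and in 2 of the 9 on CON. These limits were set by choice, and the counts were not tested against each other. CON boars 4 (37.0%) and 9 (38.1%) lay just below the lower limit and CON boar 5 (40.2%) just above it. AOS10 boars 3 and 5, both near parity, held the 2 species together at 0.0996% and 0.180% of all sequences. The lowest such value in CON was 0.548%. *O. ruminantium* was the more abundant species in 4 of the 10 on AOS10 and in 4 of the 9 on CON. The means were 52.5% ± 15.5 in AOS10 and 50.5% ± 22.8 in CON (exact p = 0.822). All AOS10 values lay inside the CON range. At the extremes *O. ruminantium* was 6.84 times *O. valericigenes* in CON boar 7 and *O. valericigenes* was 3.50 times *O. ruminantium* in CON boar 2.

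Across the AOS10 boars the shares of the species were ranked much alike. Spearman's rho was 0.82 (permutation p = 0.00566, adjusted p = 0.0340 over the 6 relations among the 3 parts of the genus in both groups, which were computed after the values had been seen), and Pearson's r was 0.55 (permutation p = 0.0939, adjusted p = 0.563). Without boars 2 and 4, the farthest from the median of *O. ruminantium*, rho was 1.0 and r 0.97 over 8 boars. Leaving out each AOS10 boar in turn gave a rho of 0.75 to 0.95. Without boar 3, in which *Murdochiella* dominated, rho was 0.75 (exact p = 0.0255, n = 9) and the adjusted p over the 6 relations was 0.153, so that the relation no longer passed. In CON rho was 0.57 (exact p = 0.121, adjusted p = 0.362, n = 9) and r 0.13 (exact p = 0.734, adjusted p = 0.913), and without the 2 farthest boars rho was 0.71 and r 0.62. Whether the groups differ in this relation was not tested. The part with neither name had a rho with *O. ruminantium* and *O. valericigenes* of 0.15 and 0.18 in AOS10 and of 0.17 and −0.07 in CON (smallest permutation p = 0.631), and an r of 0.18 and 0.11 in AOS10 and of −0.02 and −0.11 in CON (smallest permutation p = 0.604).

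*Ruminococcus* contains degraders of cellulose and resistant starch. Its share was 0.428%, 0.955% and 3.97% at the lowest, median and highest AOS10 boar, against 0.242%, 0.604% and 4.08% in CON. Every AOS10 boar lay inside the CON range, and in each group a single boar lay far above the rest (AOS10 boar 6 and CON boar 10). The mean was 1.40% ± 1.11 in AOS10 and 1.24% ± 1.25 in CON (exact p = 0.771, n = 10 and 9). Within the family it was 5.32% ± 3.48 in AOS10 and 3.87% ± 3.57 in CON (exact p = 0.386). The mean share was lower in AOS10 (a difference of −0.131 percentage points) when AOS10 boar 6 was left out, and the difference was 0.511, against 0.156, without CON boar 10.

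*Sporobacter*, in which *S. termitidis* from the termite gut breaks down methoxylated aromatic compounds, was the least abundant of the 5 genera by its mean. It ranged over 0.152% to 1.26% in AOS10 (median 0.460%) and over 0.207% to 1.09% in CON (median 0.527%). The means were 0.565% ± 0.399 in AOS10 and 0.559% ± 0.323 in CON (exact p = 0.970, n = 10 and 9). In limma the log2 fold change was −0.11 ± 0.48 (SE, 95% interval −1.10 to 0.89, adjusted p = 0.931). Within the family it was 2.75% ± 2.70 in AOS10 and 1.77% ± 0.876 in CON (exact p = 0.352). AOS10 boar 3, with the lowest family share, had the highest value (9.11%). Without this boar the difference within the family was 0.273 percentage points, against 0.980 with it.

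*Butyricicoccus* forms butyrate, and its type species *B. pullicaecorum* was isolated from the chicken caecum. Its share was 0.0768%, 0.489% and 2.21% at the lowest, median and highest AOS10 boar, against 0.187%, 0.508% and 1.13% in CON. Only 3 AOS10 boars lay inside the CON range, with 3 above it (6, 8 and 10) and 4 below it (2, 3, 5 and 7). The means were 0.700% ± 0.731 in AOS10 and 0.582% ± 0.311 in CON (exact p = 0.670, n = 10 and 9), and the coefficients of variation were 104% in AOS10 and 53.4% in CON. Means and logarithms differed in direction here, since the limma log2 fold change was −0.37 ± 0.62 (SE, 95% interval −1.65 to 0.91, adjusted p = 0.836). Within the family *Butyricicoccus* was 2.41% ± 2.21 in AOS10 and 1.92% ± 1.08 in CON (exact p = 0.555).

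*Intestinimonas* is known for *I. butyriciproducens*, which makes butyrate from sugars and from the amino acid lysine. Its share was 0.398%, 0.527%, 0.162%, 0.858%, 1.13%, 1.11%, 0.561%, 1.51%, 1.73% and 2.61% in AOS10 boars 1 to 10. In CON it was 0.555%, 0.565%, 0.689%, 0.911%, 0.651%, 0.614%, 0.732%, 0.886% and 0.830% in boars 1 to 5 and 7 to 10. The CON boars thus lay within a narrow range, and only 2 AOS10 boars fell inside it, with 5 above and 3 below. The means were 1.06% ± 0.737 in AOS10 and 0.715% ± 0.134 in CON (exact p = 0.194, n = 10 and 9), and the coefficients of variation were 69.6% in AOS10 and 18.8% in CON. Without AOS10 boar 10 the difference was 0.172 percentage points, against 0.344 with it. In limma the log2 fold change was 0.23 ± 0.45 (SE, 95% interval −0.70 to 1.15, adjusted p = 0.843). Within the family it was 4.08% ± 2.72 in AOS10 and 2.38% ± 0.709 in CON (exact p = 0.0886), with a difference of 1.08 percentage points without AOS10 boar 10.

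The spread of *Intestinimonas* was compared after these values had been seen. The mean absolute deviation from the group median was larger in AOS10 than in CON by 0.450 percentage points (permutation p = 0.00174, adjusted p = 0.0314 over 18 genera). With 9 boars the median is a boar's own value, so that 1 CON deviation is 0 by construction. Of the 18 genera, 1 passed after adjustment (5.56%) and 3 without it (16.7%). The other genera that passed without adjustment were *Oscillibacter*, which spread more widely in CON (a difference of −1.11 percentage points, adjusted p = 0.233), and *Coprococcus*. On the log2 scale the p of *Intestinimonas* was 0.00452 and its adjusted p 0.0814, and no genus passed after adjustment (0%), while *Butyricicoccus* and *Intestinimonas* passed without it (11.1%). Leaving out 1 boar at a time, the adjusted p on the percent scale was 0.0244 to 0.113, and it was not under 0.05 in 14 of 19 cases (without AOS10 boar 1, 2, 3, 4 or 7, or any CON boar).

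The species rows *Sporobacter termitidis*, *Butyricicoccus pullicaecorum* and *Intestinimonas butyriciproducens* held the same value as their genus in every boar (100% of the genus, difference 0). They give no values beyond those of the genera. No species of *Ruminococcus* was listed.

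Of the 5 genera, 4 had a higher mean and 1 (*Oscillibacter*) a lower mean in AOS10, with a median ratio of means of 1.13, against 1.02 over the 18 genera tested, of which 10 had a higher mean. In limma, by medians and by ranks only *Ruminococcus* and *Intestinimonas*, 2 of the 5, were higher in AOS10 (9, 7 and 8 of the 18 genera on these scales). Among 6 other butyrate producers 3 were listed (*Coprococcus*, *Eubacterium* and *Clostridium* XlVa), of which 2 had a higher and 1 a lower mean in AOS10 and none passed the test (median ratio 1.03). Among 5 other fibre and starch degraders *Prevotella* and *Barnesiella* were listed, both had a lower mean in AOS10 (median ratio 0.561) and neither passed. Of 5 neighbouring families sought by name 3 were found (*Lachnospiraceae*, *Eubacteriaceae* and *Peptostreptococcaceae*), of which 1 had a higher and 2 a lower mean in AOS10, and none passed. *Clostridiaceae* was sought as *Clostridiaceae* 1 and so was not counted, but it was listed without the number. Its mean was 1.97% in AOS10 and 3.06% in CON, and it did not pass (exact p = 0.146).

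The covariation of the 5 genera was computed within each group, as 10 pairs in AOS10 and 10 in CON. Spearman's rho lay between −0.55 and 0.67 in AOS10 and between −0.30 and 0.58 in CON, with 7 positive and 3 negative pairs in each group. No pair passed after adjustment over the 20 (smallest adjusted p = 0.454), and 1 pair in AOS10 passed without it. The rho of *Oscillibacter* with each of the other 4 genera lay between −0.03 and 0.07 in AOS10 and between −0.22 and 0.37 in CON. In AOS10 it was −0.20 to 0.20 without boar 3, and with *Butyricicoccus* it was −0.42 as centred log ratios (each share set against the geometric mean of the boar's genera) and −0.56 as shares of the family. Shares of one total are bound to each other, so these relations carry that constraint.

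**Figure D4:**
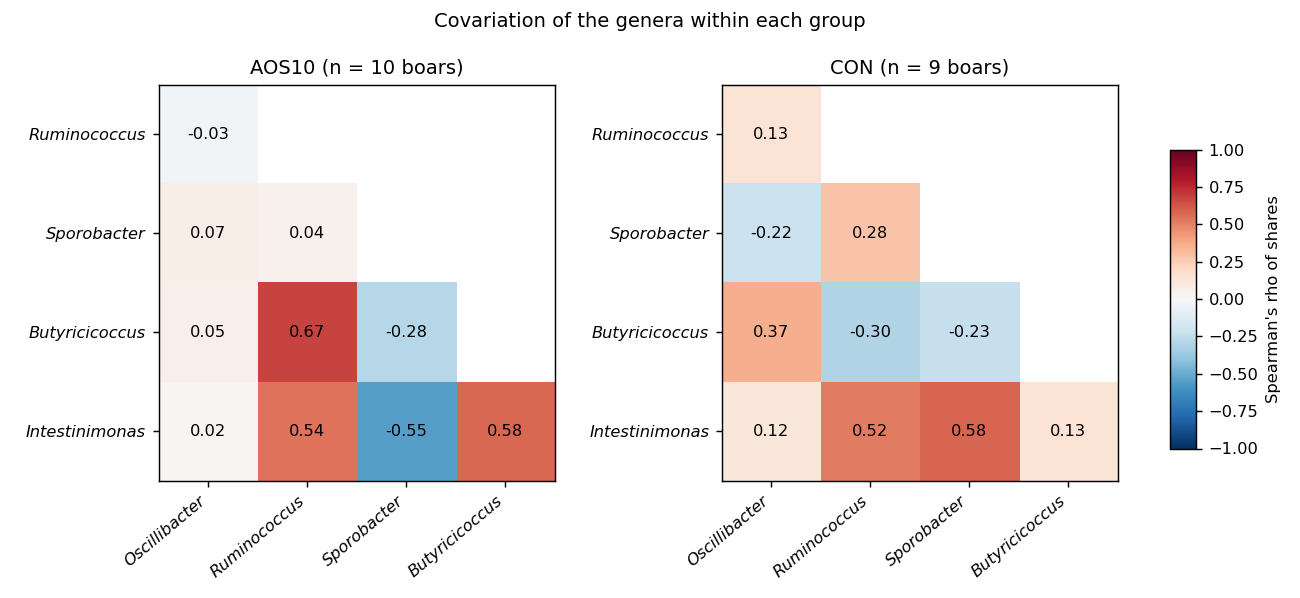
Spearman's rho between the shares of each pair of genera, over the 10 AOS10 boars (left) and the 9 CON boars (right), with the colour scale running from −1 to 1. The *Sporobacter* and *Intestinimonas* pair is at −0.55 in AOS10 and 0.58 in CON.

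*Ruminococcus* and *Butyricicoccus* had the highest rho in AOS10, 0.67 (permutation p = 0.0389, adjusted p = 0.454), with an r of 0.58 (permutation p = 0.0767, adjusted p = 0.749). AOS10 boars 6, 8 and 10 were high in both genera, and without the 2 boars farthest from the *Ruminococcus* median (6 and 10) r was 0.57 and rho 0.45. As shares of the family rho was 0.24, and without boar 3 it was 0.67 (exact p = 0.0589, n = 9), so that the pair passed under neither. In CON rho was −0.30 (exact p = 0.437, adjusted p = 0.926) and r −0.18 (exact p = 0.644, adjusted p = 0.904), with an r of −0.05 without the 2 farthest boars. The difference of rho between the groups was 0.97 (permutation p = 0.0277, adjusted p = 0.138 over 10 pairs). It was 0.83 (permutation p = 0.109) as centred log ratios.

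*Sporobacter* and *Intestinimonas* had a negative rho in AOS10 and a positive one in CON, and neither passed the test. In AOS10 rho was −0.55 (permutation p = 0.103, adjusted p = 0.454) and r −0.50 (permutation p = 0.142, adjusted p = 0.749), and without boars 2 and 6 r was −0.68. In CON rho was 0.58 (exact p = 0.108, adjusted p = 0.454) and r 0.47 (exact p = 0.198, adjusted p = 0.749), and without boars 5 and 9 r was 0.74. The difference of rho was −1.13 (permutation p = 0.0272, adjusted p = 0.138 over 10 pairs). It was −1.21 as centred log ratios (permutation p = 0.0233, adjusted p = 0.118) and −1.08 without AOS10 boar 3 (exact p = 0.0697, adjusted p = 0.349).

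*Ruminococcus* and *Intestinimonas* had a similar rho in both groups, 0.54 in AOS10 (permutation p = 0.114, adjusted p = 0.454; r = 0.42, permutation p = 0.225, adjusted p = 0.749) and 0.52 in CON (exact p = 0.162, adjusted p = 0.539; r = 0.51, exact permutation p = 0.156, adjusted p = 0.749). Without the 2 farthest boars r was 0.42 in AOS10 and 0.18 in CON. *Butyricicoccus* and *Intestinimonas*, both butyrate formers, had a rho of 0.58 in AOS10 (permutation p = 0.0897, adjusted p = 0.454) and an r of 0.66 (permutation p = 0.0379, adjusted p = 0.749), which was 0.42 without boars 8 and 10. In CON rho was 0.13 (exact p = 0.744, adjusted p = 0.974) and r 0.01 (exact p = 0.974, adjusted p = 0.974), which was 0.45 without boars 2 and 3. The difference of rho between the groups for this pair was 0.44 (permutation p = 0.356, adjusted p = 0.974 over 10 pairs). It was 1.04 as centred log ratios (permutation p = 0.0235, adjusted p = 0.118) and 0.28 without AOS10 boar 3 (permutation p = 0.547, adjusted p = 0.845).

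**Figure D5:**
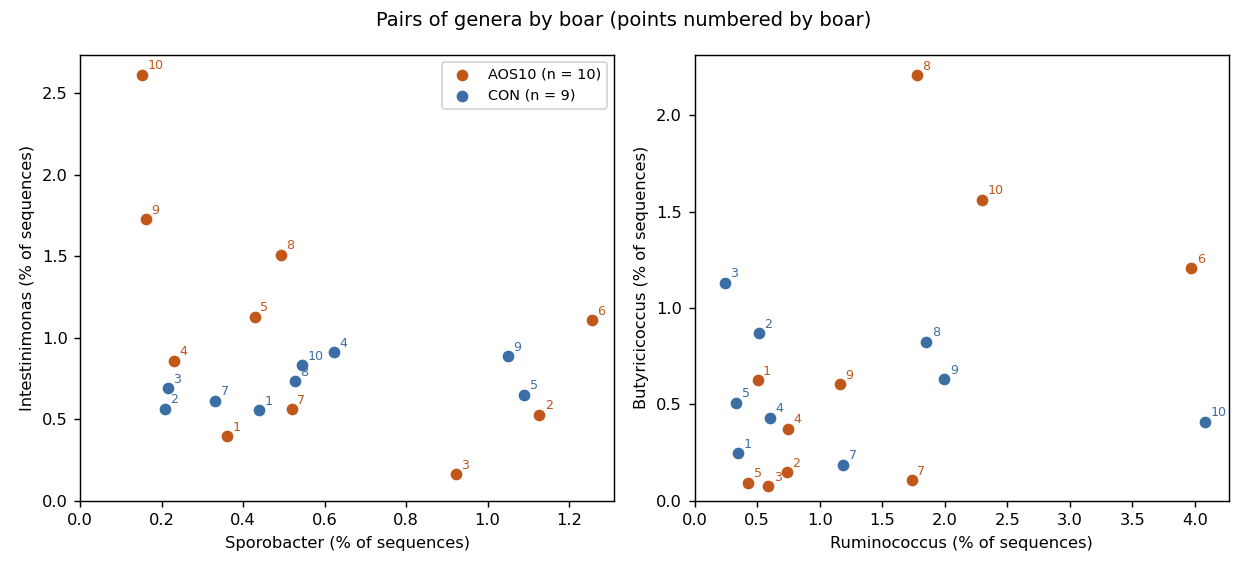
Shares of sequences in percent for *Sporobacter* against *Intestinimonas* (left) and *Ruminococcus* against *Butyricicoccus* (right), where each point is a boar with its number. On the left, AOS10 boars 9 and 10 are low in *Sporobacter* and high in *Intestinimonas*, and on the right AOS10 boars 6, 8 and 10 are high in both genera.

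The genera outside the 5 whose shares were most like *Oscillibacter*, by Spearman's rho over all 19 boars with the group means of the ranks removed, were *Barnesiella*, *Clostridium* XlVa and *Prevotella*. For *Barnesiella* rho was 0.46 (permutation p = 0.0495, adjusted p = 0.469 over 13 genera) and r 0.38 (permutation p = 0.107, adjusted p = 0.627), and without the 2 farthest boars r was 0.36. For *Clostridium* XlVa rho was 0.41 (permutation p = 0.0793, adjusted p = 0.469) and r 0.40 (permutation p = 0.0926, adjusted p = 0.627), and for *Prevotella* rho was 0.38 (permutation p = 0.108, adjusted p = 0.469) and r 0.05 (permutation p = 0.859, adjusted p = 0.968). Without the 2 farthest boars r was 0.39 for *Clostridium* XlVa and 0.22 for *Prevotella*. For *Ruminococcaceae* no family passed after adjustment over 14. The nearest was the *Clostridiales* row, with a rho of 0.31 (permutation p = 0.198, adjusted p = 0.981) and an r of −0.54 (permutation p = 0.0283, adjusted p = 0.393). Without AOS10 boar 3 r was 0.33 and rho 0.52.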

How the data were processed

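The authors joined read pairs (FLASH), filtered the reads and took out chimeras (QIIME), clustered them into operational taxonomic units, named these with Greengenes and scaled all samples to the smallest. They deposited fractions of each boar's sequences in 6 tables with all 19 columns mapped to boars, and these were multiplied to percent. No counts are given and none were inferred, so no counting interval is given. The 8 taxa, the lists and the tests were chosen with earlier results of these data known. Means were compared by two-sided exact permutation over all 92378 splits, with Benjamini-Hochberg adjustment over the taxa of a table above 0 in at least 5 boars. limma 3.58.1 (R 4.3.3) was run on log2(percent + 0.01). Correlation p-values came from all 362880 pairings of 9 boars, or 100000 resamples for 10 or more. Named were the 8 taxa, listed relatives, the 3 most alike taxa, pairs of genera with an absolute rho of at least 0.5 and taxa above 40% of a boar. The exact test of means and the limma step were tested on simulated data with large planted changes. Correlation and spread were not simulated. Alternatives changed the scale, pseudocount (0.001 and 0.1), summary, denominator, pairing and set of boars. Computations ran in Python 3.11.15 with pandas 2.3.3, scipy 1.17.1 and numpy 2.4.6.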

Additional observations from a re-analysis of the deposited data

Results flagged for a closer look

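Single boars stood apart from their group in 6 of 30 groups of values, judged by the gap between the extreme boar and its nearest neighbour relative to the group's whole range. For normally distributed values in independent groups the rule would flag about 1 in 20. These shares are skewed, and a genus enters both as a share and within the family, so the count cannot be read as an excess. *Ruminococcus* was 3.97% in AOS10 boar 6 (next boar 2.30%) and 4.08% in CON boar 10 (next boar 2.0%). In CON boar 10 it was also 12.0% of *Ruminococcaceae* (next boar 5.38%). *O. valericigenes* was 4.26% in CON boar 3 (next boar 1.74%). *Sporobacter* was 9.11% of *Ruminococcaceae* in AOS10 boar 3 (next boar 4.98%), the boar in which *Murdochiella* held 54.4% of the sequences. *Intestinimonas* was 4.16% of *Ruminococcaceae* in CON boar 4 (next boar 2.45%), the CON boar with the lowest family share (21.9%).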

How the results depend on the processing

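No family, genus or species passed an adjusted p of 0.05 in the comparison of means under any alternative run, and no pair of the 5 genera did. *Ruminococcaceae*, *Oscillibacter*, *Intestinimonas* and *O. valericigenes* kept their direction under every alternative run. Leaving out each boar in turn, the AOS10 minus CON difference was −6.36 to −3.50 percentage points for *Ruminococcaceae* and −3.29 to −2.29 for *Oscillibacter* (exact permutation p = 0.0102 to 0.0466), and without CON boars 7 and 8 it was −1.90 for *Oscillibacter* (exact permutation p = 0.0966). The mean differences whose direction turned had not passed the exact test in the main comparison. *O. ruminantium* was higher in AOS10 by medians (0.257) and without CON boars 7 and 8 (0.199). *Ruminococcus* ran from −0.131 to 0.511 with 1 boar left out. *Sporobacter* was lower in AOS10 in limma (log2 −0.11 at pseudocounts of 0.01 and 0.001, −0.069 at 0.1), by medians (−0.0664) and by mean rank (−0.844), and ran from −0.0704 to 0.0728 with 1 boar left out. *Butyricicoccus* was lower in limma (log2 −0.37, −0.40 and −0.19 at 0.01, 0.001 and 0.1), by medians (−0.0188) and by mean rank (−1.27), and ran from −0.0489 to 0.188. Within *Ruminococcaceae* it was lower by medians (−0.0560), mean rank (−0.422) and log2 (−0.073). Within the family *Oscillibacter* (permutation p = 0.0982 to 0.441) and *Intestinimonas* (0.110 to 0.278) did not pass by medians, mean rank or log2. With 1 boar left out the difference within the family was −8.50 to −5.58 for *Oscillibacter* and 1.08 to 1.98 for *Intestinimonas*. The exact permutation p of *Oscillibacter* was then 0.0262 to 0.124, under 0.05 only without AOS10 boar 2 or CON boar 1, 4 or 9. That of *Intestinimonas* was 0.0497 to 0.165, under 0.05 only without AOS10 boar 1. The species balance ran from −1.54 to 6.59 percentage points. The part of *Oscillibacter* with neither species name, as percent of the genus, ran from −2.56 to 6.37 and was −3.32 by medians. As percent of all sequences, which is a different measure, its difference was −1.40 (exact permutation p = 0.0299). The CON rho of *Butyricicoccus* and *Intestinimonas* was −0.55 as centred log ratios and −0.05 as shares of the family, and ran from −0.19 to 0.38. Boars of the same number did not vary together as a set (r −0.43 to 0.49 over 9 pairs, 4 above 0.1, and 1 boar correlating best with its own number). The labels do not say what a shared number stands for, and these correlations cannot settle it. With pairing by number as a block *Ruminococcus* was −0.131, *Sporobacter* −0.0704 and the unnamed part of *Oscillibacter* −0.491, and *Oscillibacter* was −2.76 (exact permutation p = 0.0664).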
